A study of Mus musculus with 12 samples.

Results

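Stc1, which encodes the secreted glycoprotein stanniocalcin-1, and 9 genes best known for their induction by low oxygen were followed across 12 bulk tumour libraries from mice. The 10 genes were Stc1, its paralogue Stc2, Ankrd37, Vegfa, Car9, Bnip3, Ndrg1, Egln3, Adm and Pdk1, out of 32416 genes in the deposited expression table, and all 10 had a row there. They were picked because Stc1 was higher in every B16mhgp100 tumour labelled Aoah than in every B16mhgp100 Vector tumour, with Ankrd37 moving the same way. The B16mhgp100 Aoah and Vector values are therefore given below as a description without a test, and tests are kept to comparisons that this choice did not use.

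The tumours were grown under the skin of C57BL/6 mice from B16mhgp100 or B16F10 cells, both lines of the B16 mouse melanoma. Cells labelled Aoah over-expressed acyloxyacyl hydrolase, an enzyme that removes fatty acyl chains from bacterial lipopolysaccharide, and cells labelled Vector served as their control. B16mhgp100 tumours, 4 Aoah and 4 Vector, received anti-PD1 from day 10 after inoculation. B16F10 tumours, 2 Aoah and 2 Vector, received anti-PD1 together with anti-CTLA4 from day 6. Each antibody dose was 200 µg, given 2 times a week until 4 doses had been reached, and tumours were collected 1 day later. All 12 tumours were thus treated with a checkpoint antibody, and no untreated tumour was part of the design. The age of the mice, the promoter that drove Aoah and whether the modified lines were clones were not given in the sources used here. Nothing states that replicate tumours came from separate mice, so the p-values below measure only the spread between these tumours.

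As background, cells sense oxygen through the hypoxia-inducible factors. The alpha subunits, encoded by Hif1a and Epas1, are hydroxylated by the Egln prolyl hydroxylases when oxygen is present, bound by the Vhl ubiquitin ligase and degraded. When oxygen is short they persist, pair with Arnt and bind a short DNA element with the core ACGTG or GCGTG near their target genes. Solid tumours, B16 melanomas among them, hold poorly perfused regions in which these targets are switched on, and the targets serve blood supply (Vegfa, Adm), glucose use and mitochondrial activity (Pdk1, Bnip3), acid handling (Car9) and feedback on the pathway itself (Egln3). Stc1 and Stc2 are also known to respond to other stresses, including unfolded protein in the endoplasmic reticulum.

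The sequences just upstream of 4 members that hold the core ACGTG are shown because the members moved together in most libraries, as described below. Each is the 250 bases before the gene's annotated start in RefSeq on GRCm38.p6, read 5′ to 3′ on the gene's own strand, with ACGTG or its reverse complement CACGT in capitals. In the Bnip3 sequence the 2 orientations overlap in the palindrome CACGTG, and the Ankrd37 sequence holds the core in 2 places, with first bases at -241 and -6 relative to the start.
Ankrd37: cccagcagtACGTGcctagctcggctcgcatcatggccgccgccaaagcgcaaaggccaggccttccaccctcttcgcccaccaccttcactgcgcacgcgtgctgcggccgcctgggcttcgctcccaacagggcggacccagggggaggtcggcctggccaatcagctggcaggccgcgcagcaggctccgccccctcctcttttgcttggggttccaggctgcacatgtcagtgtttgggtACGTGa
Bnip3: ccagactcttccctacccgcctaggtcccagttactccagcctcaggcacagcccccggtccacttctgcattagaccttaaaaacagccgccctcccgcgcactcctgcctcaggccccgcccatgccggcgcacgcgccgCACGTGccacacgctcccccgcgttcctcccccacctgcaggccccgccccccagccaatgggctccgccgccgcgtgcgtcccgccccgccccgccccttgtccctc
Car9: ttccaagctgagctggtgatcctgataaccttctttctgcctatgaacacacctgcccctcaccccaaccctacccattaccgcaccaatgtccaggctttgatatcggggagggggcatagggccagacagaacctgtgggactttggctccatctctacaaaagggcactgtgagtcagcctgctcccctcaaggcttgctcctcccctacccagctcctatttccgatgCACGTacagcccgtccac
Egln3: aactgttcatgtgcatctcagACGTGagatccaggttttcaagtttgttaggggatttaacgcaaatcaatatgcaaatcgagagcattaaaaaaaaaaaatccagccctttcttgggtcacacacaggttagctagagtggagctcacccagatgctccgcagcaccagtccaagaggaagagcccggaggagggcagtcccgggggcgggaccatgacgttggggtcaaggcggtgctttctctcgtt
They lie at chr8:45999851-46000100 on the minus strand for Ankrd37, chr7:138909507-138909756 on the minus strand for Bnip3, chr4:43506776-43507025 on the plus strand for Car9 and chr12:54203875-54204124 on the minus strand for Egln3. The RefSeq promoter table matched 8 of the 10 members by symbol and had no entry for Stc1 or Ndrg1. ACGTG in either orientation was found upstream of 5 of these 8, the fifth being Vegfa at an internal start only, against 18.5% of the 27025 genes in the table. GCGTG or its reverse complement CACGC was found upstream of 6 of the 8 (Stc2, Ankrd37, Vegfa, Bnip3, Adm and Pdk1), against 30.9% of genes. For Vegfa this match too was at the internal start only. Such a match describes letters in a window and was not measured binding.

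Expression is given as TPM, the share of a library's transcripts that came from a gene, corrected for transcript length, so levels of different genes can be compared within a library but the read depth behind them is not kept. The authors' deposited tables of mean normalised counts give an idea of that depth. In the B16F10 table, Stc1 averaged 218 counts, Stc2 5.82, Ankrd37 93.4, Egln3 110, Adm 313 and Bnip3 2470. Stc2 reached 1 TPM in 1 of 12 libraries and passed no filter on low values, so 9 of the 10 members entered the fits.

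One library of the Aoah groups stands apart and touches most results. The library labelled B16mhgp100 Aoah 4 had a median correlation with the other libraries of 0.833 across 16556 genes, against 0.922 to 0.961 for the rest. Its Aoah level was 3.91 TPM, inside the range of the B16mhgp100 Vector tumours (0.89 to 7.58), while the other B16mhgp100 Aoah tumours had 13.96 to 22.46, the B16F10 Aoah tumours 21.75 and 23.73 and the B16F10 Vector tumours 1.49 and 0.75. Summed over 10 melanocyte markers, all of them detected, it had 7990 TPM against 16200 to 30400 in the other 11 libraries. It had 6570 TPM of 10 keratinocyte markers (4.37 to 91.5 elsewhere) and 5920 TPM of 10 skeletal muscle markers (20.7 to 890 elsewhere), with none of either list at 0. Its median-of-ratios size factor, the typical level of a gene relative to the other libraries, was 0.619, against 0.896 to 1.13 for the rest. The TPM of a typical gene was therefore low there, and the TPM values below are not scaled for this. In B16F10 Vector 2, mitochondrially encoded genes took 10.4% of TPM, against 2.77% to 6.38% in the others. In bulk tissue, fewer cells of a type and less RNA per cell cannot be told apart. Results that rest on either library are given with and without it.

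Stc1 had one high group and 3 low ones. It stood at 10.16, 9.79, 10.9 and 14.17 TPM in the 4 B16mhgp100 Aoah tumours and at 5, 5.09, 4.08 and 4.4 TPM in the 4 B16mhgp100 Vector tumours. In B16F10 it stood at 5.76 and 5.19 TPM in the Aoah tumours and at 5.68 and 5.01 TPM in the Vector tumours. The B16mhgp100 Aoah group (11.3 ± 2.00, mean ± SD, n = 4) overlapped no other group, and the other 3 groups, with means of 5.48, 5.34 and 4.64 TPM, each overlapped the next in order. The ratio of the means was 2.42 in B16mhgp100 and stayed at 2.22 without the library labelled Aoah 4, which held the highest Stc1 level of all 12 tumours.

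Ankrd37, a small ankyrin repeat protein, lay just on the other side of that separation. It stood at 15.55, 29.1, 15.67 and 17.74 TPM in B16mhgp100 Aoah tumours and at 11.4, 16.1, 6.07 and 6.71 TPM in B16mhgp100 Vector tumours, so the highest Vector tumour exceeded 2 of the Aoah tumours. For comparison, the lowest Stc1 level in those Aoah tumours was 9.79 TPM and the highest Vector level 5.09 TPM. In B16F10, Ankrd37 stood at 13.82 and 12.13 TPM with Aoah and at 21.11 and 9.57 TPM with Vector, where the 2 Vector tumours enclosed both Aoah tumours.

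Vegfa, the growth factor that draws in blood vessels, and Adm, which encodes the vasodilator peptide adrenomedullin, were high in 3 B16mhgp100 Aoah tumours. The library labelled Aoah 4 lay below those 3 in unscaled TPM, inside the Vector range for Adm and below it for Vegfa. Vegfa stood at 201.21, 285.83, 290.63 and 43.42 TPM in the Aoah tumours and at 153.27, 180.11, 87.47 and 115.26 TPM in the Vector tumours of B16mhgp100. In B16F10 it stood at 67.15 and 85.79 TPM with Aoah and at 93.55 and 56.14 TPM with Vector. The first 3 Aoah tumours lay above every other library, and Aoah 4 lay below all of them. Adm stood at 118.35, 144.48, 141.8 and 52.76 TPM in B16mhgp100 Aoah tumours and at 90.38, 79, 46.76 and 74.28 TPM in B16mhgp100 Vector tumours. In B16F10, Adm stood at 28.3 and 37.82 TPM with Aoah and at 16.52 and 28.01 TPM with Vector, below every B16mhgp100 tumour.

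The metabolic and mitochondrial members followed the Vegfa pattern. Bnip3, which marks mitochondria for removal, was the most abundant member in each of the 12 libraries. It stood at 460.38, 545.56, 513.3 and 134.27 TPM in B16mhgp100 Aoah tumours and at 302.01, 448.91, 201.15 and 259.93 TPM in the Vector tumours. In B16F10 it stood at 213.72 and 241.54 TPM with Aoah and at 268.09 and 143.47 TPM with Vector. Its 3 highest values were B16mhgp100 Aoah 1 to 3 and its lowest was Aoah 4. Pdk1, a kinase that shuts pyruvate out of the mitochondrial citric acid cycle, stood at 95.65, 106.37, 96.91 and 20.17 TPM in those Aoah tumours and at 57.45, 105.65, 61.16 and 66.86 TPM in the Vector tumours. In B16F10, Pdk1 stood at 48.95 and 58.24 TPM with Aoah and at 71.42 and 34.41 TPM with Vector. Its Aoah and Vector means differed least of the 10 members in B16mhgp100, at a ratio of 1.1, with Vector 2 level with the high Aoah tumours and Aoah 4 the lowest of all.

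The remaining members overlapped between Aoah and Vector in B16mhgp100 as well. Car9, a carbonic anhydrase at the cell surface, averaged 115 ± 45.1 TPM with Aoah and 71.4 ± 28.1 TPM with Vector (SD, n = 4 each). Ndrg1, a cytoplasmic protein induced by several stresses, averaged 69.8 ± 29.1 and 46.8 ± 11.2 TPM. Egln3, one of the prolyl hydroxylases and itself a target of the pathway, averaged 5.98 ± 3.51 and 2.82 ± 1.83 TPM, its Aoah mean being carried by 11.08 TPM in Aoah 2. Stc2 was near the limit of measurement, at 0.25 to 1.91 TPM with Aoah and 0.05 to 0.6 TPM with Vector, so that its ratio of 2.4 rests on low values.

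**Figure D1:**
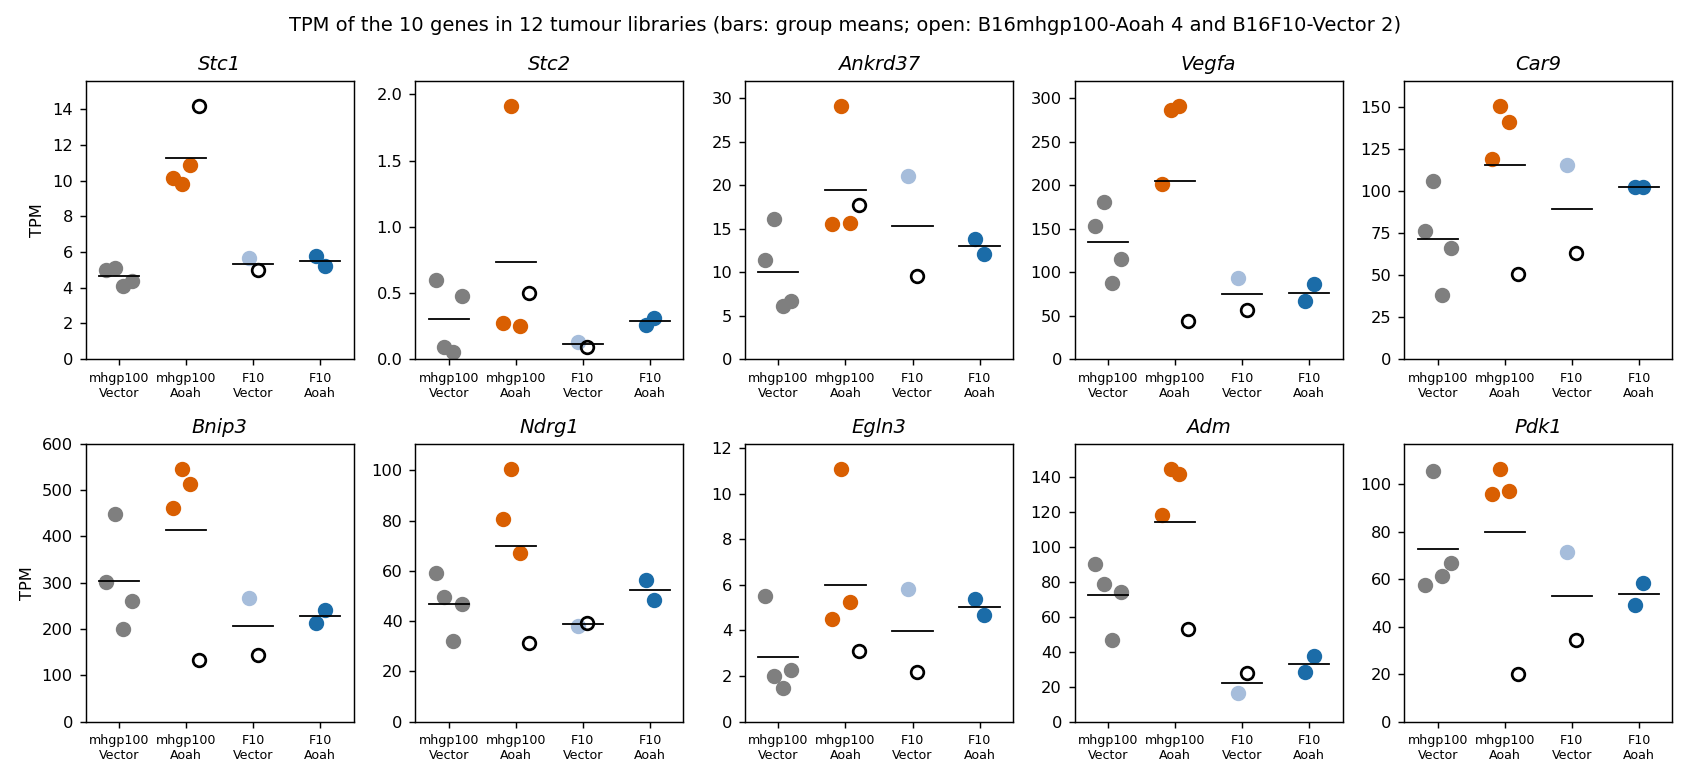
TPM of each of the 10 genes (vertical axes, each from 0) in the 12 tumours by group, with 1 point per tumour and a bar at the group mean; open points are B16mhgp100 Aoah 4 and B16F10 Vector 2. Stc1 is separated in all 4 B16mhgp100 Aoah tumours, with 9.79 TPM as the lowest, whereas Vegfa, Bnip3, Ndrg1 and Pdk1 have their lowest value of all 12 tumours in Aoah 4. Genes outside the members, among them Hif1a, Ldha and Tyrp1, were lowest there too, while others, such as Higd1a and Mt1, were highest there.

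In B16mhgp100, 8 of the 9 members that passed the filter had a higher mean with Aoah than with Vector on the log2(TPM + 1) scale, with a median difference of 0.59. Over all 14228 genes kept (at least 1 TPM in at least 4 libraries), 30% had a positive difference and the median was -0.20. The largest member differences were 1.11 for Stc1, 0.94 for Ankrd37 and 0.85 for Egln3, and Pdk1 alone was below 0, at -0.07. Groups did not overlap for 1 of the 9 members, Stc1, and Aoah was the higher group without overlap for 0.731% of all genes. It was the lower group without overlap for 0 of 9 members and 5.15% of all genes. With Aoah 4 left out, all 9 differences were positive, between 0.49 and 1.07. Aoah was then higher without overlap for 6 of 9 members (Stc1, Vegfa, Car9, Bnip3, Ndrg1 and Adm) and 2.96% of all genes, and lower for 0 of 9 and 6.26%. A limma fit, which borrows strength across genes to estimate the spread, placed 0 of the 14228 genes (0%) past an adjusted p of 0.05 in this contrast and 350 under an unadjusted p of 0.05, while the authors' deposited table had 3. Because the genes were chosen on this contrast, nothing further is read from these counts.

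**Figure D2:**
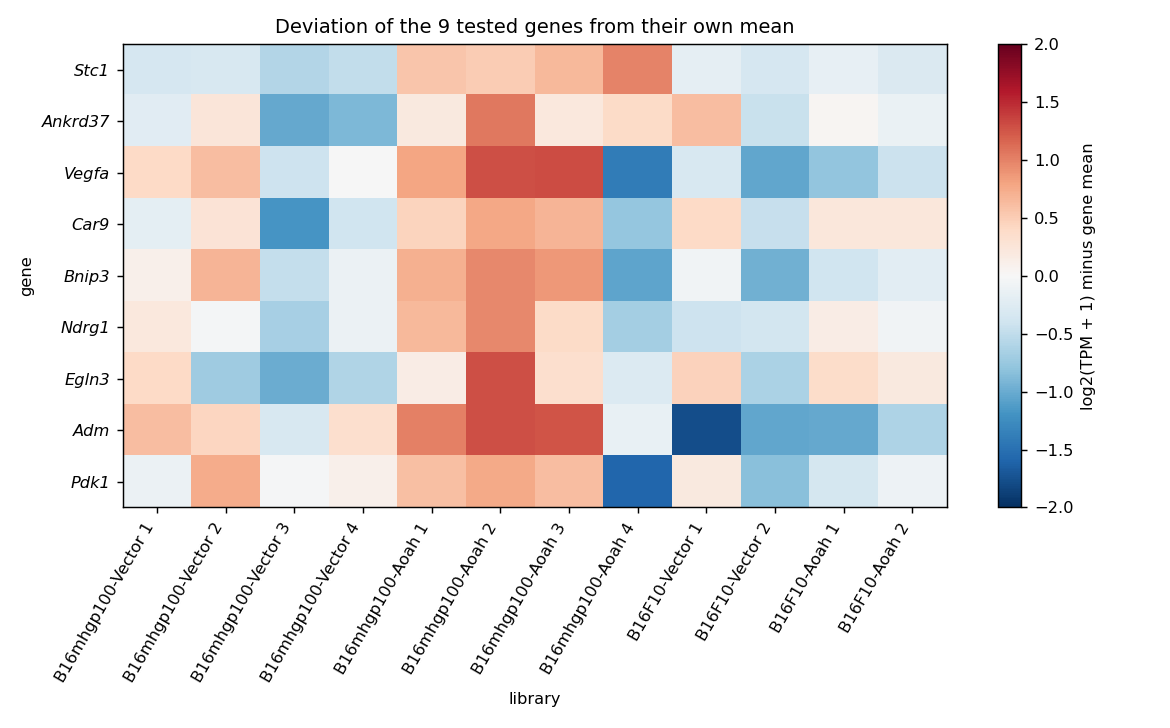
Deviation of log2(TPM + 1) from the gene's own mean over 12 tumours (colour, red above and blue below) for the 9 members that passed the filter, by tumour. The columns of B16mhgp100 Aoah 1 to 3 are red throughout, Aoah 4 is red for Stc1 and Ankrd37 alone, and Adm is blue in all 4 B16F10 tumours.

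The B16F10 tumours gave a comparison of Aoah with Vector that played no part in choosing the genes. No member passed the test there. Stc1 averaged 5.48 ± 0.403 TPM with Aoah and 5.34 ± 0.474 TPM with Vector (SD, n = 2 each), a difference of 0.03 on the log2(TPM + 1) scale (95% interval -0.61 to 0.67, limma adjusted p = 0.964). Whether the Aoah difference itself differed between the models was not tested. Ankrd37 averaged 13 ± 1.2 and 15.3 ± 8.16 TPM, a difference of -0.13 (-1.12 to 0.85, adjusted p = 0.893), and Vegfa 76.5 ± 13.2 and 74.8 ± 26.5 TPM, a difference of 0.07 (-0.66 to 0.79, adjusted p = 0.93).

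The 2 members furthest from 0 in B16F10 were Adm and Ndrg1. Adm averaged 33.1 ± 6.73 TPM with Aoah and 22.3 ± 8.12 TPM with Vector, a log2 difference of 0.58 with a standard error (SE) of 0.31 (adjusted p = 0.393). Ndrg1 averaged 52.4 ± 5.68 and 38.7 ± 1.05 TPM, a log2 difference of 0.43 (SE 0.18, adjusted p = 0.298). For both, each Aoah tumour exceeded each Vector tumour, as was the case for 28% of all genes. That share is the background for these 2 of 9 members, and 0 of 9 were lower without overlap, against 22.6%. Egln3, Car9, Bnip3 and Pdk1 had log2 differences of 0.37, 0.26, 0.21 and 0.10, with adjusted p-values from 0.69 to 0.91.

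In total 0 of the 9 members were called in B16F10, also at an unadjusted p of 0.05, and none of the 10 was past 0.05 in the authors' deposited table. The limma background was 0.344% of 14533 genes (0.289% higher, 0.055% lower), kept at 1 TPM in at least 2 libraries. Differences were positive for 8 of 9 members with a median of 0.21, against 51.6% of all genes and a median of 0.02. That direction depended on B16F10 Vector 2, which was below Vector 1 for 7 of the 9 members. Leaving that tumour out also moved all genes down, to 42% positive and a median of -0.11. Without it, 2 of 9 differences were positive, the median was -0.18, Adm was called higher (0.94, adjusted p = 0.0239) and Ankrd37 lower (-0.66, adjusted p = 0.0497). Without Vector 1, Car9 (0.69, adjusted p = 0.0097), Bnip3 (0.66, adjusted p = 0.0124) and Pdk1 (0.62, adjusted p = 0.034) were called higher instead. With 1 Vector tumour left, its spread is assumed to be that of the Aoah pair. These fits called 23% and 22.1% of all genes, so 2 and 3 of 9 members lie near the background. An exact permutation test of 2 against 2 tumours cannot go below p = 0.333.

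Cell type markers also differed between the B16F10 groups. The sum of 10 T cell markers, none at 0 in any library, was 98.8 to 114 TPM with Aoah and 7.71 to 19.7 TPM with Vector, and that of 12 macrophage and monocyte markers 1110 to 1180 and 657 to 722 TPM. The sum of 10 melanocyte markers was 29300 to 30400 TPM with Aoah and 19300 to 22500 TPM with Vector, and that of 10 fibroblast markers 169 to 240 and 391 to 507 TPM. By mean log2(TPM + 1), 10 of 10 T cell, 9 of 11 kept macrophage and monocyte and 8 of 10 melanocyte markers were higher with Aoah. Of 9 kept fibroblast markers, 8 were lower. Mrc1 and Ccr2 (macrophage and monocyte), Mlana and Mitf (melanocyte) and Thy1 (fibroblast) went the other way. Of 10 endothelial markers, 9 had a lower mean with Aoah and 0 were called, while the sum, with Eng as the 1 that was higher, was 296 to 298 and 244 to 322 TPM. The part of these cell types in the member values was not tested.

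The other comparison set the tumour models against each other, averaged over Aoah and Vector. The choice of genes used the difference between the B16mhgp100 groups and not their average. For Stc1 and Ankrd37, however, the average holds the Aoah tumours picked as high, so these 2 are given as a description. Adm was higher in B16mhgp100, by 1.67 on the log2(TPM + 1) scale (SE 0.29, 95% interval 1.02 to 2.32, limma adjusted p = 0.00706), which is 3.18-fold. All 8 B16mhgp100 tumours, at 46.76 to 144.48 TPM, exceeded all 4 B16F10 tumours, at 16.52 to 37.82 TPM. Models did not overlap in that direction for 1 of 9 members and 2.51% of all genes, and in the other direction for 0 of 9 and 4.57%. Totals of 9 between the models include Stc1 and Ankrd37, and neither adds to the counts in the fit of all libraries. The models differed in cell line, antibodies and first day of dosing, and these cannot be told apart.

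None of the other members passed in that fit. Vegfa ranged from 43.42 to 290.63 TPM in B16mhgp100 and from 56.14 to 93.55 TPM in B16F10, a log2 difference of 0.97 (SE 0.46, adjusted p = 0.251). Bnip3 differed by 0.62 (SE 0.38, adjusted p = 0.375), Pdk1 by 0.41 (adjusted p = 0.621) and Ndrg1 by 0.27 (adjusted p = 0.635). Car9 and Egln3 were near 0, at -0.14 and -0.15, with 95% intervals reaching from -0.89 to 0.60 and -0.91 to 0.61. Stc1 differed by 0.37 and Ankrd37 by -0.03, and the Stc1 value came from the Aoah group alone, since B16mhgp100 Vector tumours averaged 4.64 TPM and the B16F10 Aoah and Vector tumours 5.48 and 5.34 TPM. Thus 1 of 9 members was called higher and 0 lower, against 3.71% and 3.66% of 16556 genes (7.37% together).

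Single tumours moved these calls. In the fit without the library labelled Aoah 4, Adm (1.84, adjusted p = 0.000197), Vegfa (1.28, adjusted p = 0.00214), Bnip3 (0.86, adjusted p = 0.0146) and Pdk1 (0.69, adjusted p = 0.0298) were called higher. Stc1 (0.32) was past the threshold too, but its average holds the Aoah tumours picked as high, so nothing is read from it. The same fit called 20.8% of 16261 genes higher and 1923 genes lower. Adm kept a log2 difference of 1.49 to 2.02 over 18 alternatives and was past the threshold in 17, the exception being the fit without B16F10 Aoah 1 (1.57, adjusted p = 0.0516).

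**Figure D3:**
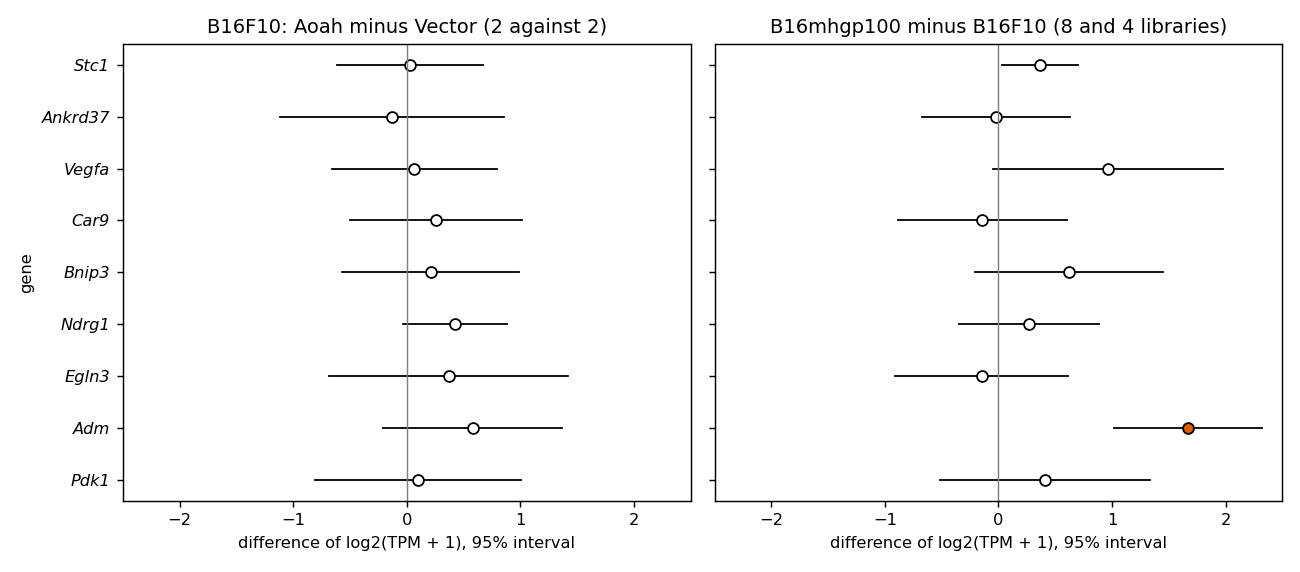
Difference of mean log2(TPM + 1) with its 95% interval (horizontal axis) for the 9 members, as Aoah minus Vector in B16F10 (left) and as B16mhgp100 minus B16F10 (right); filled points passed an adjusted p of 0.05. Every interval on the left includes 0, and on the right Adm, at 1.67, is the one filled point.

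Genes around the pathway were taken from 4 lists. In B16F10, Aoah against Vector, no gene of these lists was called by limma, although 3, 14, 6 and 4 of them had an unadjusted p under 0.05, as did 18.2% of all genes. Among 9 kept hypoxia-inducible factor subunits and regulators, 8 had positive differences, with a median of 0.17, but without B16F10 Vector 2 it was 3 of 8, with a median of -0.12. Cited2, which competes with the factors for a shared coactivator, had a difference of 0.69 (adjusted p = 0.16), and Epas1, the second alpha subunit, had -1.02 (adjusted p = 0.171). Of 56 further hypoxia-induced genes, 39 had positive differences with a median of 0.29, led by p-value by Insig2 (0.84, adjusted p = 0.104) and the lactate exporter Slc16a3 (0.77, adjusted p = 0.121). Without B16F10 Vector 2, 28 of the 56 were positive with a median of -0.01, against 42% of all genes and a median of -0.11. Family members and partners of the 10 genes had a median of -0.09 over 19 kept genes, and -0.03 over 18 without B16F10 Vector 2. Pdk2, a second pyruvate dehydrogenase kinase, stood at 12 ± 2.24 TPM with Aoah and 3.08 ± 0.106 TPM with Vector (adjusted p = 0.0786). The Vegfa receptors Flt1 (-1.12, adjusted p = 0.133) and Kdr (-1.21, adjusted p = 0.135) and the carbonic anhydrase Car4 (-2.33, adjusted p = 0.145) had the next smallest p-values. Of 16 genes of the unfolded protein and ATF4 response, 11 had positive differences, with a median of 0.30. Without B16F10 Vector 2 it was 9 of 16, with a median of 0.04.

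Between the models, 6 of the 56 further hypoxia-induced genes were called higher and 1 lower in B16mhgp100, against 3.71% and 3.66% of all genes. Their median was 0.18 against 0.03 for all genes, and 0.08 against -0.03 without B16F10 Vector 2. The metallothioneins Mt2 (1.06, SE 0.16, adjusted p = 0.00253) and Mt1 (0.73, SE 0.18, adjusted p = 0.0348), which bind zinc and copper, were higher, as were the transcription factors Maff (1.37, SE 0.30, adjusted p = 0.0194) and Nfil3 (0.91, SE 0.23, adjusted p = 0.0361) and the glycolytic enzyme Hk2 (0.77, SE 0.19, adjusted p = 0.0316). Slc16a3 fell by 1.71 on the log2 scale (SE 0.32, adjusted p = 0.00861), from 221.15 to 443.13 TPM in the B16F10 tumours to 46.47 to 175.16 TPM in B16mhgp100. Without B16F10 Vector 2, 1 of the 56 was still called higher (Mt2) and 1 lower (Slc16a3), against 221 and 266 of 16315 genes. Over 18 alternatives, Mt1 and Nfil3 each lost their call in 12, Hk2 in 9, Maff in 3, Slc16a3 in 2 and Mt2 in 1. Leaving out the library labelled Aoah 4 gave 19 called higher and 4 lower, in a fit that called 20.8% of 16261 genes higher and 1923 genes lower.

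None of the 10 kept factor subunits and regulators was called between the models, nor was any under an unadjusted p of 0.05, and their median was 0.20. Without the library labelled Aoah 4, 5 of them were called higher, against 20.8% of all genes. Of 23 family members and partners, Adm2, a peptide related to adrenomedullin, was called higher in B16mhgp100. It passed the filter only through those tumours, so nothing is read from its call. It stood at 1.4 to 2.95 TPM there and was listed at 0 to 0.09 TPM in B16F10. Car2, a cytosolic carbonic anhydrase, was lower (-2.19, SE 0.18, adjusted p = 7.82e-05), at 0.21 to 1.06 TPM against 4.66 to 10.34 TPM. Car2 in turn passed the filter through the B16F10 tumours, where it was high. With Aoah 4 left out, 7 of 22 were called higher and 2 lower, against 20.8% of 16261 genes higher and 1923 genes lower.

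Of 16 unfolded protein and ATF4 genes, 13 had positive differences between the models, with a median of 0.71. In this list 2 were called higher and 1 lower, against 3.71% and 3.66% of all genes. Without B16F10 Vector 2 the median was 0.37, with the same counts of calls, against 221 and 266 of 16315 genes. The endoplasmic reticulum chaperone Hsp90b1 (0.99, SE 0.12, adjusted p = 0.000793) and the stress transcription factor Ddit3 (1.12, SE 0.17, adjusted p = 0.00269) were higher. Sdf2l1, another endoplasmic reticulum protein, was lower (-0.82, SE 0.11, adjusted p = 0.00153). Atf4 itself did not pass (0.71, adjusted p = 0.0756). Without the library labelled Aoah 4, 12 were called higher and 1 lower, against 20.8% of 16261 genes higher and 1923 genes lower.

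In B16mhgp100, where the lists are described without a test because this contrast chose the members, 34 of the 56 further hypoxia-induced genes had a higher mean with Aoah, with a median of 0.10. Without the library labelled Aoah 4, 54 of 56 did, with a median of 0.46, against 44.3% of all genes and a median of -0.03. In those libraries the factor subunits and regulators had 4 of 9 above 0 and a median of -0.01, and the unfolded protein and ATF4 genes had 6 of 16 above 0 and a median of -0.11.

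**Figure D4:**
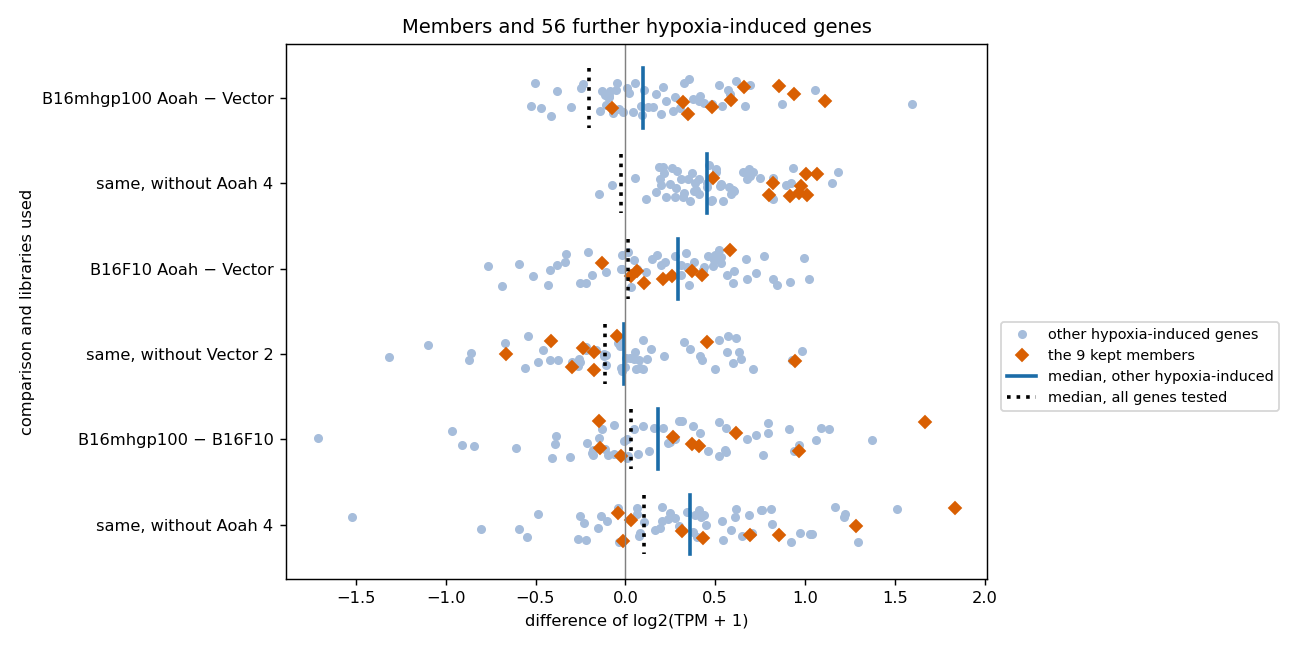
Difference of mean log2(TPM + 1) (horizontal axis) for the 9 kept members (diamonds) and 56 further hypoxia-induced genes (circles) in 3 comparisons, each with and without the library that stands apart; solid ticks mark the median of the 56 genes and dotted ticks that of all genes tested. The circles move right of 0 in B16mhgp100 once Aoah 4 is left out (54 of 56 above 0). They spread evenly around 0 in B16F10 once Vector 2 is left out (28 of 56), where the median of all genes was -0.11.

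Whether Stc1 varied with the other members was examined within groups, using each library's deviation from its group mean. Over 12 libraries, the correlation of Stc1 with each of the 8 other kept members ran from a Pearson r of -0.584 for Pdk1 (Spearman rho -0.21) to 0.317 for Ankrd37 (rho 0.483). Exact 2-sided permutation within groups gave p = 0.202 and 0.598 for Pdk1 and p = 0.342 and 0.171 for Ankrd37, for r and rho in turn. After Benjamini-Hochberg adjustment over the 8 relations, p ranged from 0.467 to 0.756 for r and was 0.978 for rho. Without the 2 tumours furthest in Stc1 (B16mhgp100 Aoah 4 and Vector 2), r ran from -0.2 to 0.384, and without Aoah 4 alone from -0.0711 for Adm to 0.523 for Ankrd37. The 8 other members varied with each other more closely, with a median pairwise r of 0.691 over 28 pairs (0.127 to 0.975), and 0.611 without the library labelled Aoah 4. These libraries share their tumour composition, and pairwise values are given as a description.

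In unscaled TPM, the library labelled Aoah 4 set Stc1 apart from the other members. The mean log2(TPM + 1) of the 8 other members was 6.22, 6.70, 6.36 and 4.96 in B16mhgp100 Aoah tumours and 5.80, 5.93, 5.02 and 5.44 in the Vector tumours. It was 5.43 and 5.51 in B16F10 with Aoah and 5.54 and 4.93 with Vector. The library labelled Aoah 4 thus combined the highest Stc1 of the series with the second lowest mean of the others. That low rank holds for unscaled TPM, in a library whose size factor was 0.619, and the mean was not recomputed after scaling. In the B16mhgp100 Vector tumours, the order from high to low was Vector 2, 1, 4 and 3 both by this mean and by Stc1. The B16mhgp100 Aoah tumours ran 2, 3, 1 and 4 by the mean but 4, 3, 1 and 2 by Stc1. In B16F10 the Vector pair had the same order by the mean and by Stc1, and the Aoah pair had opposite orders.

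The genes most like Stc1, by Pearson r of the same within-group deviations among 13582 candidates, were Slc24a3 (0.95), H3c15 (0.947), Gtf2h4 (0.945), Ccnt1 (0.936) and Nudt17 (0.93). H3c15 is a histone gene with near-identical copies, so its level is uncertain. Their r fell to between 0.811 and 0.884 without the library labelled Aoah 4, and the 5 genes ranked first were then others: Btbd2, Arhgef17, Itpk1, Iqcc and Tmem170 (0.939 to 0.964). The neighbours of the mean of the 9 kept members were steadier in ranks 1 and 2 only. P4ha2, a collagen prolyl hydroxylase, reached 0.988 and Dubr 0.979, and both kept ranks 1 and 2 without that library, at 0.973 and 0.971. Prxl2c (0.975), Ero1a, an oxidase of the endoplasmic reticulum (0.969), and Kank4 (0.964) came next and had 0.914 to 0.932 without it. Their places then went to Xylt2, Selenbp1 and Tpd52 (0.946 to 0.963). All these r are the highest among 13582 candidates and were not tested. P4ha2 and Ero1a are themselves on the list of further hypoxia-induced genes.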

How the data were processed

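Bulk polyA RNA of 12 tumours was sequenced, and groups follow the sample titles. Per the submitters' processing notes, RSEM, DESeq2 and genome build mm39 were used; the sources used here name no version or annotation. The authors deposited expression as log2(TPM + 1), judged from the values, which give 992185 to 996590 TPM in total per library when taken back to the linear scale. TPM keep no read depth. The 2 deposited comparison tables hold, as deposited by the authors, mean normalised counts (a signal averaged over a model's libraries), log2 fold changes, their SE and test statistic (scores), and p-values. The deposited table of receptor repertoires was not used. Group differences of the log2 values were fitted in limma 3.58.1 under R 4.3.3 (intensity trend, 2-sided, Benjamini-Hochberg over all kept genes, threshold 0.05), for B16F10 on its 4 libraries and for the models on 4 group means. Genes were kept at 1 TPM in at least 2 libraries (4 in B16mhgp100). Correlations used SciPy 1.17.1 and figures matplotlib 3.10.9 in Python 3.11.15, and scripts were tested on simulated data. The 10 members and the lists were chosen with earlier results of these data known. The text names all members, up to 4 genes of each pathway list by smallest p per tested contrast (up to 6 where called), and the 5 genes most like Stc1 or the members' mean. Alternatives were another pseudocount, no filter, median-of-ratios scaling, a replicate block, no trend, a joint fit, the authors' table and leaving out each library; leaving out both libraries that stand apart was added after seeing the data. Coordinates come from RefSeq on GRCm38.p6 and are used for promoter sequences alone.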

Additional observations from a re-analysis of the deposited data

Results flagged for a closer look

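In groups of 4 tumours, a value far from the other 3 was searched for in each of the 10 members (20 groups, of which chance alone would pick out about 1 in 20). Bnip3 stood at 134.27 TPM in the library labelled B16mhgp100 Aoah 4, and its gap to the next tumour took 0.879 of the group's range on the log2(TPM + 1) scale, above the 95% critical value of Dixon's test. Pdk1 stood at 20.17 TPM in the same library, with a gap of 0.935 of the range. Both genes were at their lowest of all 12 tumours there. So were genes outside the members, among them Hif1a, Ldha and Tyrp1, while Higd1a and Mt1 were highest there. The size factor of that library was 0.619.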

How the results depend on the processing

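The count of genes past the threshold moved with most settings. For Aoah against Vector in B16F10, 50 genes were called, and 32 with a pseudocount of 0.1 TPM, 0 of 26770 with no filter (3335 at an unadjusted p under 0.05 by limma), 129 with median-of-ratios scaling, 16 with no intensity trend, 61 in a fit of all 12 libraries and 1222 in the authors' deposited table. Leaving out 1 library gave 234 to 3242 genes and 0 to 3 members. Between the models, 1221 genes were called, 2135 with median-of-ratios scaling and 4223, with 2 members (Adm and Vegfa), without both libraries that stand apart. Leaving out 1 library gave 391 to 5303 genes and 0 to 5 members, with Stc1, which is described only, among the 5. In B16mhgp100, the members without overlap were 2 with median-of-ratios scaling (Stc1 and Adm) and 1 to 6 over fits leaving out 1 library. The genes called were 1 with a pseudocount of 0.1 TPM and 0 to 1 over those fits. Median-of-ratios scaling moved the median of all genes there from -0.20 to -0.02, and the Stc1 difference from 1.11 to 1.30. The Stc1 difference was 1.25 with a pseudocount of 0.1 TPM and 1.59 in the authors' deposited table. Some member differences changed sign when 1 library was left out, and the cause was not tested. In B16F10 their ranges were -0.046 to 0.11 for Stc1, -0.66 to 0.40 for Ankrd37, -0.30 to 0.43 for Vegfa, -0.18 to 0.69 for Car9, -0.24 to 0.66 for Bnip3, -0.18 to 0.91 for Egln3 and -0.41 to 0.62 for Pdk1, the lowest of each being without Vector 2 and the highest without Vector 1. Between the models the ranges were -0.29 to 0.24 for Ankrd37, -0.36 to 0.073 for Car9 and -0.42 to 0.13 for Egln3, again with the B16F10 Vector tumours at both ends, and Egln2 moved to 0.0014 without both libraries that stand apart.

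The main fits did not use the replicate numbers as pairs. Same-numbered Aoah and Vector tumours of B16mhgp100 had deviations correlated at -0.239, -0.212, 0.068 and -0.074, and other pairs ran from -0.343 to 0.375. In B16F10 the value was -0.084, but groups of 2 can only give 0.084 or -0.084 there. These values can neither show nor exclude a pairing. With the replicate number as a block, 765 genes were called in B16F10, 280 between the models and 0 in B16mhgp100 (238 at an unadjusted p under 0.05), and between the models Ankrd37 (0.30), Car9 (0.23) and Egln3 (0.18) became positive. TPM keep no read depth, so counting error cannot be given, the 2 against 2 tumours of B16F10 leave wide intervals, and Stc2 is too low to compare.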
